A study of Mus musculus with 2 samples.

Results

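The adult haemoglobin genes Hba-a1, Hba-a2, Hbb-bs and Hbb-bt were followed, 4 of the 32285 genes in the count tables, through every barcode of 2 single-cell RNA libraries from mouse ovarian tumors. They were chosen by their level in free RNA and in gated cells, in earlier results of these data, and taken by symbol. Their unique molecular identifiers (UMIs, each standing for 1 captured RNA molecule) were summed over cells gated by marker genes, over each library, and over barcodes with under 100 UMIs, which were taken to hold free RNA and not cells. These sums are of the kind that chose the genes, so they are given as descriptions, without a test. They had been described as free RNA. In the control IgG library 181 of 202 haemoglobin UMIs lay in barcodes under 100 UMIs, which restates how the genes were chosen, and 147 of these lay in barcodes of 1 to 9 UMIs. Whether barcodes that small were droplets with free RNA was not tested. The description as free RNA did not hold for most of the signal of the Activin A antibody library, in which 4477 of 4893 haemoglobin UMIs lay in 3 barcodes that each held 725 or more of them.

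Both libraries came from female C57BL/6 mice, 6 to 8 weeks old, whose peritoneal wall had been abraded and which then carried syngeneic ovarian cancer cells (p53-/-, myc, Hras) injected into the peritoneal cavity. The mice received daily injections of a neutralizing antibody against Activin A, a TGF-β family ligand, or of control IgG. Tumors at the abraded site were pooled within each group, digested with enzymes, treated with red blood cell lysis buffer and passed through a dead cell removal step. Each group is therefore 1 library, labels name 7 mice for control IgG and 8 for the antibody, and treatment cannot be told apart from any other difference between the libraries. No test between the groups was possible, and every interval below is an exact 95% interval that covers counting error only. Each takes UMIs as independent, so an interval is too narrow where a few barcodes hold most of the UMIs.

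Haemoglobin is the oxygen carrier of red blood cells, a tetramer of alpha and beta globin chains around haem. In the mouse, Hba-a1 and Hba-a2 encode the alpha chain, and Hbb-bs and Hbb-bt encode the adult beta chain of the C57BL/6 strain. Erythroblasts and reticulocytes fill with these transcripts as they lose most others, and mature red cells, which have no nucleus, retain some of the RNA. Macrophages take up damaged red cells and free haemoglobin, and haemolysis or red cell lysis releases the contents into the fluid from which single cells are sampled.

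On mm10 (GRCm38), the alpha genes lie on the plus strand of chromosome 11, Hba-a1 at chr11:32283511-32284465 and Hba-a2 at chr11:32296489-32297298. The beta genes lie on the minus strand of chromosome 7, Hbb-bs at chr7:103826534-103828096 and Hbb-bt at chr7:103812524-103813996. Each has 3 exons in its longest protein-coding transcript, the one read here. Reads of a 3′ library fall near the end of the transcript, so the coding part of the last exon is shown for the 4 genes to let a reader see how little separates the copies. Sequences are from GENCODE release M21, 126 bases each, ending just before the stop codon, with the base that differs from the other copy in capitals.
Hba-a1: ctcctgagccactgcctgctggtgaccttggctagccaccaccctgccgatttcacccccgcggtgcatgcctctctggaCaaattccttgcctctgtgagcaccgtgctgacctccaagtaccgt
Hba-a2: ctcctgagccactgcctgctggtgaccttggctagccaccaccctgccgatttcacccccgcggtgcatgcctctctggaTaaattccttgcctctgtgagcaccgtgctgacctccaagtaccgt
Hbb-bs: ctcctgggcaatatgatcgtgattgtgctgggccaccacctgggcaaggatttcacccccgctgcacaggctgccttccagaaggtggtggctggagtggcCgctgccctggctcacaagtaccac
Hbb-bt: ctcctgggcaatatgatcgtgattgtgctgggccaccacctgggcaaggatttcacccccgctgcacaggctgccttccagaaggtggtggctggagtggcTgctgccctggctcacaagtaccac

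Within each pair, 1 base differed in this stretch and also in the whole coding sequence (429 bases for alpha, 444 for beta). After the stop codon the alpha copies shared an identical run of 74 bases, which is all of that region in the Hba-a1 transcript read. The beta copies shared no run longer than 8 bases there. Reads from the 2 alpha genes are thus hard to assign to a copy and many match both, so the split between Hba-a1 and Hba-a2 is uncertain and alpha sums rest on the reads that were counted. The beta copies can be separated after the stop codon.

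The control IgG library held 98174850 UMIs in 1322464 barcodes, and the antibody library held 74117462 in 1136375. A barcode counted as a kept cell if it had from 1000 to 8500 genes, from 1000 to 100000 UMIs and no more than 10% of mitochondrial UMIs. That left 8770 and 6386 cells with medians of 5719 and 4660 UMIs. Doublets were kept. Of the barcodes kept as cells, 19 occurred in both libraries. Barcodes with under 100 UMIs held 6.39% of all UMIs in the control IgG library and 6.23% in the antibody library, a like share in both. Their sizes were less alike, as barcodes of 20 to 99 UMIs had medians of 54 and 32 UMIs.

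Over all barcodes, haemoglobin was rare in the control IgG library. Hba-a1 had 36 UMIs, Hba-a2 had 12, Hbb-bs had 128 and Hbb-bt had 26, together 2.06 UMIs per 1000000 UMIs (counts per 1000000, CPM; 95% interval 1.78 to 2.36). The antibody library had much more: Hba-a1 had 957 UMIs, Hba-a2 had 635, Hbb-bs had 2760 and Hbb-bt had 541, together 66.0 CPM (64.2 to 67.9). Of these UMIs, 4477 lay in 3 barcodes, so this interval is too narrow for the level. All 4 genes were higher in the antibody library, which without the 5 barcodes that held 10 or more haemoglobin UMIs stood at 4.95 CPM (4.46 to 5.49).

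The number of haemoglobin UMIs per barcode separated scattered molecules from barcodes full of haemoglobin. Among control IgG barcodes, 194 had a haemoglobin UMI, and none had more than 3. Of its 178 such barcodes under 100 UMIs, 176 had exactly 1. The antibody library had 305 such barcodes. Of the 254 under 100 UMIs, 220 had 1, 23 had 2, 9 had 3 to 9, and 2 had 10 or more. In barcodes under 100 UMIs the molecules of the control IgG library were therefore spread almost singly. Its 11 kept cells with a haemoglobin UMI were less so, as 7 had 1, 3 had 2 and 1 had 3. The molecules of the antibody library had a concentrated fraction and a more spread one, which was less single than in the control IgG library. In barcodes of 1 to 9 UMIs, the 207 haemoglobin UMIs of the antibody library lay in 168 barcodes. The 147 of the control IgG library lay in 144. An antibody barcode of 5 UMIs held only haemoglobin.

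**Figure D1:**
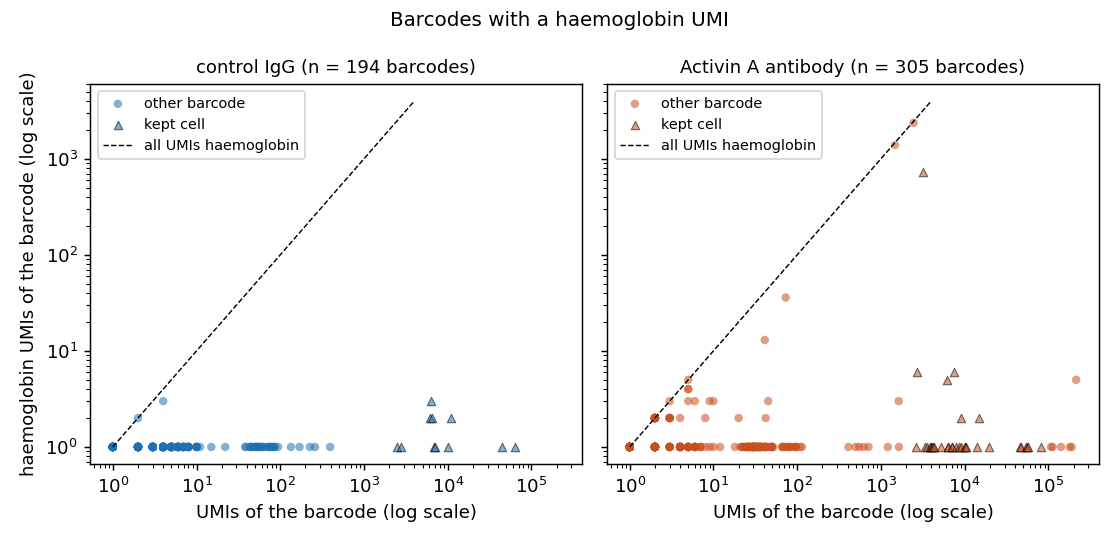
Each point is a barcode with at least 1 haemoglobin UMI, placed by its UMIs (x, log scale) and its haemoglobin UMIs (y, log scale), with triangles for kept cells and a dashed line where all UMIs are haemoglobin. In the control IgG library no barcode exceeds 3 haemoglobin UMIs, while in the antibody library 3 barcodes hold 2365, 1387 and 725.

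The richest barcode of the antibody library held 2365 haemoglobin UMIs among 2451, or 96.5%, with 428 of Hba-a1, 318 of Hba-a2, 1365 of Hbb-bs and 254 of Hbb-bt. The next held 1387 among 1469, or 94.4%, with 240, 176, 778 and 193 UMIs of the same genes in that order. They had 65 and 62 genes detected, below the limit of 1000 genes for a kept cell, so neither entered the cells. Their few other molecules included genes of the red cell lineage. Alas2, the erythroid form of the first enzyme of haem synthesis, had 6 and 4 UMIs. Slc25a37, which carries iron into the mitochondria of erythroblasts, had 2 and 1. The barcodes shared 16 genes other than haemoglobin, and the list also held Epb41, which encodes a protein of the red cell membrane skeleton, with 2 and 1 UMIs, and Tent5c with 1 and 3. No macrophage marker was detected in either.

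The third barcode was a kept cell with 725 haemoglobin UMIs among 3155, or 23.0%, made up of 143 of Hba-a1, 100 of Hba-a2, 428 of Hbb-bs and 54 of Hbb-bt. It had 1371 genes detected and was gated as a macrophage by 4 of 5 markers: the complement genes C1qa, C1qb and C1qc with 9, 7 and 8 UMIs and the mannose receptor Mrc1 with 2. Adgre1, the fifth marker, was at 0. Markers of other classes were also present: F13a1 with 5 UMIs and Ccr2 with 1 (monocyte), Pecam1 with 2 (endothelial cell) and Dcn with 1 (fibroblast). Its most abundant genes after haemoglobin included the acute phase gene Saa3 with 90 UMIs, the MHC class II invariant chain Cd74 with 32 and the apolipoprotein Apoe with 21. Alas2 had 3 UMIs in this cell and 0 in the other 200 macrophages of the library. Its 2430 other UMIs were below the median of 6688.5 in those macrophages, 9 of which had fewer. Whether it was a macrophage with red cell contents or a macrophage and a red cell in the same droplet cannot be told apart here.

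Genes that handle haem and red cells were read in that cell beside the other 200 macrophages, as CPM of UMIs other than haemoglobin. The heavy and light ferritin chains store iron. Fth1 was at 9465 CPM (6000 to 14202; 23 UMIs) against 12304, and Ftl1 at 3292 CPM (1421 to 6487; 8 UMIs) against 6037. Both intervals include the value of the other macrophages. Hmox1, which breaks down haem, had 0 UMIs in the cell and was detected in 68.5% of the others, and Cd163, the receptor for haemoglobin bound to haptoglobin, had 0 and was detected in 3.5%. Vcam1, which marks macrophages that clear red cells in the spleen, had 4 UMIs in the cell and 16 in all 200 others. It was picked from the 10 red cell uptake genes listed below. Of these, Sirpa had 2 UMIs in the cell and Scarb1 had 1. Mertk, detected in 45.5% of the others, and Axl, Stab1, Stab2, Cd36, Timd4 and Megf10 had 0. Spic and Slc40a1, of the haem clearance genes, also had 0. With 2430 UMIs in 1 cell, a gene at 0 says little about its level.

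The remaining barcodes with 10 or more haemoglobin UMIs were small. One held 36 among 73 UMIs, with 15 of Hba-a1, 7 of Hba-a2, 10 of Hbb-bs and 4 of Hbb-bt. The other held 13 among 41, with 7 of Hba-a1 and 6 of Hba-a2 and none of the beta genes. Neither had a UMI of the erythroid or haem synthesis genes listed below. None of the 3 large barcodes was present in the control IgG library, and barcodes 1 base away from them held 2 haemoglobin UMIs in the antibody library and 0 in the control IgG library.

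Outside the rich barcodes, the haemoglobin level was highest in small barcodes and lowest in those of cell size. In the control IgG library it was 62.3 CPM (52.6 to 73.2; 147 UMIs) in barcodes of 1 to 9 UMIs, 72.1 CPM (29.0 to 148; 7 UMIs) at 10 to 19, 7.07 CPM (4.66 to 10.3; 27 UMIs) at 20 to 99, 1.77 CPM (0.575 to 4.14; 5 UMIs) at 100 to under 1000 and 0.180 CPM (0.103 to 0.292; 16 UMIs) at 1000 or more. In the antibody library it was 110 CPM (95.6 to 126; 207 UMIs) at 1 to 9, 50.7 CPM (18.6 to 110; 6 UMIs) at 10 to 19, 50.9 CPM (42.6 to 60.3; 133 UMIs) at 20 to 99, or 32.1 CPM (25.6 to 39.8; 84 UMIs) there without the 2 small rich barcodes, and 6.04 CPM (2.43 to 12.4; 7 UMIs) at 100 to under 1000. At 1000 or more it was 66.4 CPM with all barcodes and 0.922 CPM (0.708 to 1.18) without the rich ones. The step in the control IgG library lay at 20 UMIs, where the level dropped from 72.1 to 7.33 CPM between barcodes of 10 to 19 and of 20 to 49 UMIs, with intervals that did not overlap.

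**Figure D2:**
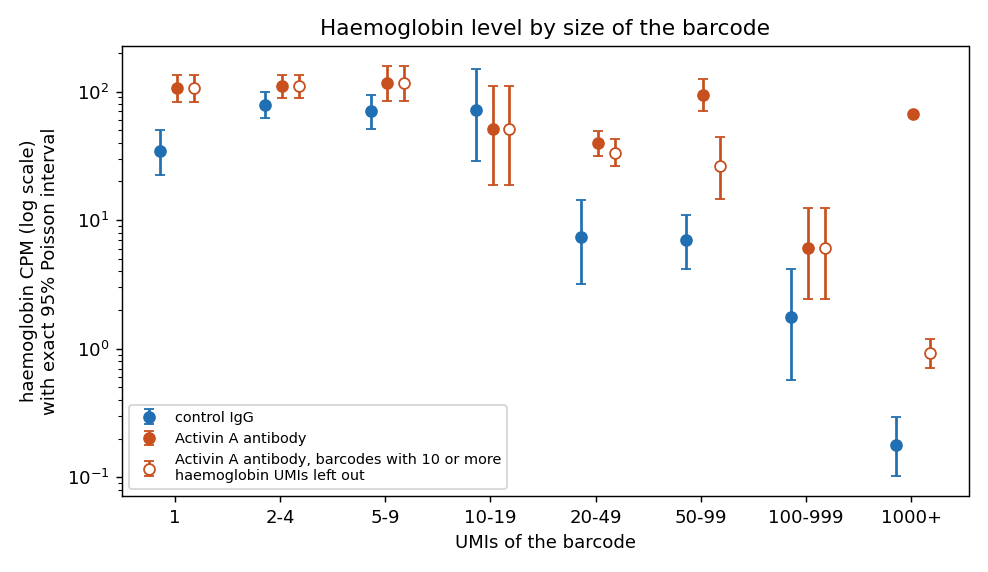
Haemoglobin CPM (y, log scale) by the number of UMIs of the barcode (x), with exact 95% Poisson intervals, for both libraries and, as open points, for the antibody library without barcodes of 10 or more haemoglobin UMIs. The level is highest in barcodes under 20 UMIs in both libraries and lowest at 1000 or more, except for the filled antibody points that hold the rich barcodes.

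All genes were compared between barcodes of 1 to 9 and of 20 to 99 UMIs to read this drop against the rest of the transcriptome. In the control IgG library 31.5% of 12635 genes with enough UMIs were over 2-fold higher in the smaller barcodes. Hbb-bs was 3.06 higher on the log2 scale (2.32 to 3.88; 93 and 18 UMIs), Hba-a1 2.81 (1.5 to 4.38; 26 and 6 UMIs) and Hbb-bt 5.09 (2.45 to 10.46; 21 UMIs and 1), against a median of 0.79 over all genes tested. Hba-a2 had 7 and 2 UMIs, too few to be counted. Of 12673 genes in the antibody library 5.55% passed 2-fold. Hba-a1 was 1.57 higher (0.99 to 2.16) and Hbb-bs 1.31 higher (0.83 to 1.81), whereas Hbb-bt differed by 0.57 (-0.54 to 1.69) and Hba-a2 by -1.05 (-2.42 to 0.16), both with intervals that include no difference. With the rich barcodes left out, Hba-a1 differed by 2.82 (2.03 to 3.69), Hbb-bs by 1.59 (1.08 to 2.12), Hbb-bt by 1.02 (-0.18 to 2.27) and Hba-a2 by 0.15 (-1.39 to 1.65).

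Between barcodes under 100 UMIs and kept cells, all 4 genes stood far higher in free RNA in the control IgG library. Hba-a1 was at 5.10 CPM (32 UMIs) in free RNA and 0.0374 CPM (3 UMIs) in cells, Hba-a2 at 1.59 (10 UMIs) and 0.0249 (2 UMIs), Hbb-bs at 18.5 (116 UMIs) and 0.112 (9 UMIs), and Hbb-bt at 3.66 (23 UMIs) and 0.0249 (2 UMIs). The 4 together were 28.8 CPM (24.8 to 33.4) in free RNA and 0.199 CPM (0.114 to 0.324) in 8770 cells, so that the log2 ratio was 7.18 (6.44 to 8.01). All 4 passed 2-fold, as did 6.74% of 18711 genes tested. Ranked by this ratio with a prior count of 0.5, Hbb-bs was at place 18, Hbb-bt 21, Hba-a1 22 and Hba-a2 32. The genes were chosen by these levels, so the passes and places restate the choice and are no finding about the genes. The places also rest on 2 to 9 UMIs per gene in cells.

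The same ratio depended on 1 cell in the antibody library. Hba-a1 was at 26.0 CPM in free RNA and 2.79 in cells, Hba-a2 at 6.72 and 1.86, Hbb-bs at 35.1 and 7.79, and Hbb-bt at 7.15 and 1.03. The 4 together stood at 75.0 CPM (67.3 to 83.3) in free RNA and 13.5 CPM (12.5 to 14.4) in cells, which gave a log2 ratio of 2.48 (2.29 to 2.66), and all 4 passed 2-fold, as did 8.38% of 18149 genes. Without the cell of 725 haemoglobin UMIs and the 2 small rich barcodes, the levels were 64.4 CPM (57.3 to 72.1) in free RNA and 0.836 CPM (0.616 to 1.11) in cells, with a log2 ratio of 6.27 (5.82 to 6.74). The low ratio of this library thus came from the cell, which held 725 of the 773 haemoglobin UMIs in 6386 cells. For that reason the intervals of 13.5 CPM and of 2.48 are too narrow. That all 4 genes passed 2-fold again follows from how they were chosen.

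Free RNA held more haemoglobin in the antibody library than in the control IgG library, by 1.38 on the log2 scale (1.12 to 1.65), and by 1.16 (0.89 to 1.43) without the rich barcodes. Values for the single genes follow, and differences between them were not tested. Hba-a1 was 2.35 higher (1.78 to 2.96) and Hba-a2 2.08 higher (1.01 to 3.27), while Hbb-bs was 0.93 higher (0.57 to 1.28) and Hbb-bt 0.96 higher (0.15 to 1.80). Without the rich barcodes Hba-a2 was 1.29 higher (0.10 to 2.57). Thus 2 of 4 passed 2-fold, as did 11.1% of 14391 genes, whose median was itself 0.44 higher in the antibody library. In barcodes of 1 to 9 UMIs only Hba-a1 passed, at 1.97 (1.31 to 2.66), as did 4.61% of 12417 genes, and the other 3 lay between -0.06 and 0.52. In barcodes of 20 to 99 UMIs all 4 passed, between 2.21 and 4.45, as did 27.6% of 12917 genes with a median of 0.73. Without the rich barcodes the 4 genes lay between 1.93 and 4.01 there. Hba-a2 and Hbb-bt rested on 2 UMIs and 1 UMI in the control IgG library at this size. How far apart the libraries stood therefore changed with the size of barcode read, and with 1 library per group none of these differences has a replicate check. The intervals also leave out that haemoglobin UMIs shared small barcodes more often in the antibody library.

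In kept cells all 4 genes were over 2-fold higher in the antibody library, as were 4.25% of 19657 genes, with 773 haemoglobin UMIs against 16. Without the rich cell the antibody library had 48 UMIs in 32 of 6385 cells, at most 6 in a cell, and the control IgG library 16 in 11 of 8770 cells, at most 3. The log2 ratio fell from 6.08 to 2.07 (1.23 to 2.98). Hba-a1 then stood at 2.98 (1.2 to 5.40) and Hbb-bs at 1.56 (0.35 to 2.89), and the intervals of Hba-a2 and Hbb-bt reached below 0.

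T cells, which do not make haemoglobin, showed how much of it lay in droplets with a cell. None of the 3800 T cells of the control IgG library had a haemoglobin UMI, where 3 counts would have been 0.121 CPM, or 0.419% of the level in free RNA. In the same T cells 15 genes of other cells, among them the neutrophil genes S100a8 and S100a9, the macrophage genes C1qa and C1qb and the collagens Col1a1 and Col3a1, were at 1.79% to 7.58% of their free RNA level. Acta1, the skeletal muscle actin, was at 1.79% (1.59 to 2.02) and the antibody light chain gene Igkc at 4.96% (4.58 to 5.37). The 7.58% was Retnlg with 3 UMIs in T cells (1.34 to 29.4). Antibody T cells held 5 haemoglobin UMIs in 5 of 2927 cells, 0.409% (0.132 to 0.964) of free RNA, and the 15 genes ranged from 0.603% to 8.32%. The lowest in that library was Retnlg, with 1 UMI (0.0149 to 3.52). In that library the haemoglobin interval overlapped those of S100a8, S100a9, Retnlg, C1qa, C1qb and Dcn. Measured against the free RNA of 20 to 99 UMIs alone, 3 counts in the control IgG T cells were 1.71%. That was above Acta1 at 1.29% and below C1qa at 3.34%, the next lowest of the 15 genes. Antibody haemoglobin was at 0.603% (0.193 to 1.44) on this measure, and the lowest of the 15 was Retnlg at 0.729% (0.0177 to 4.51), from 1 UMI. Several of the 15 genes are class markers, and the gate left out T cells with many of them.

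**Figure D3:**
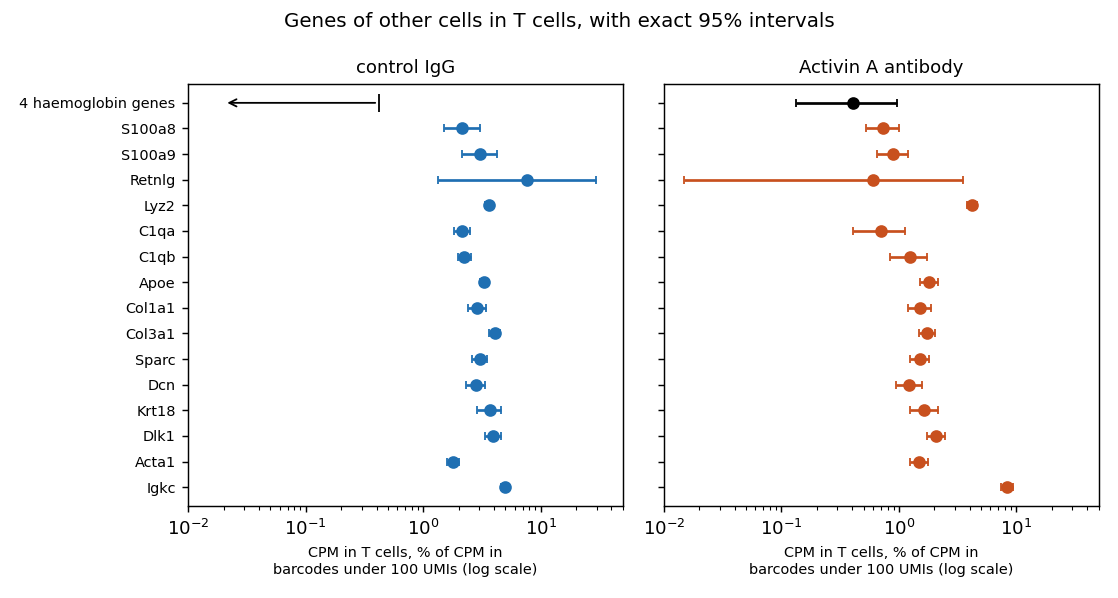
CPM in cells gated as T cells as a percent of CPM in barcodes under 100 UMIs (x, log scale) for the 4 haemoglobin genes summed (top, black) and 15 genes of other cells, with exact 95% intervals. In the control IgG library haemoglobin has no UMI in T cells and the arrow starts at the level of 3 counts, 0.419%, below every other gene; in the antibody library it is at 0.409%.

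Classes were gated by 5 markers each. No cell of either library was gated as an erythroid cell. The 905 macrophages of the control IgG library held 7 haemoglobin UMIs in 4 cells, 7.73 per 1000 cells (3.11 to 15.9), against 0 (0 to 0.971) in T cells. Per UMI, with macrophages deeper at a median of 8088 UMIs against 4822, they stood at 0.918 CPM (0.369 to 1.89) against 0 (0 to 0.148). The 4 cells had 2, 2, 2 and 1. The 319 cancer cells held 2 UMIs, NK cells and monocytes 1 each, and B cells, fibroblasts, dendritic cells, neutrophils and skeletal muscle cells 0. Macrophages held the most haemoglobin UMIs of the gated classes, but not a rate set apart from all of them. Per 1000 cells, cancer cells stood at 6.27 (0.759 to 22.6) and NK cells at 5.81 (0.147 to 32.4), with intervals that overlapped that of macrophages. Per UMI, NK cells were at 1.52 CPM (0.0385 to 8.47).

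The 201 macrophages of the antibody library held 727 haemoglobin UMIs in 2 cells, 725 of them in the cell described above. The other 200 held 2 UMIs in 1 cell, 10.0 per 1000 cells (1.21 to 36.1), against 1.71 (0.555 to 3.99) in T cells, and these intervals overlapped. A cell gated as a B cell held 6 UMIs, with 2 of Hba-a1, 3 of Hbb-bs and 1 of Hbb-bt. Cancer cells held 6 UMIs in 6 of 335 cells, 1 each, in cells with a median of 55905 UMIs. Monocytes held 4 in 4 of 349 cells, fibroblasts 1 and dendritic cells 1. Cells that reached no class held 7 UMIs in 3 of 167 cells, and cells with markers of more than 1 class held 16 in 10 of 1742.

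**Figure D4:**
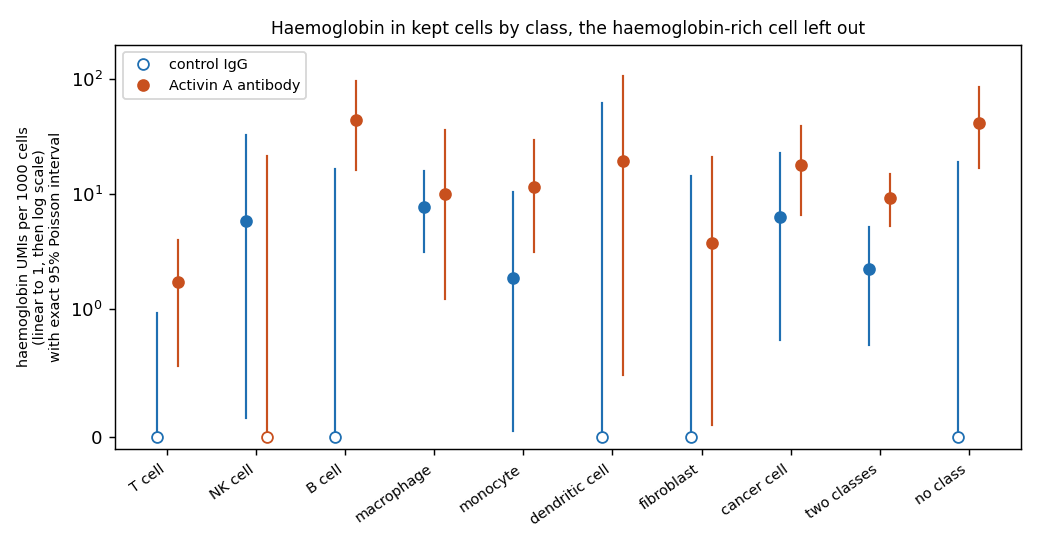
Haemoglobin UMIs per 1000 kept cells (y, linear to 1 and log above) by gated class (x) in both libraries, with exact 95% Poisson intervals, open points for classes with no haemoglobin UMI, and the cell with 725 haemoglobin UMIs left out. All classes lie under 50 per 1000 cells, and most intervals of the 2 libraries overlap.

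Classes differ in depth, so the share of cells with a haemoglobin UMI was also taken at 2000 UMIs per cell, as the share expected over random draws, which left out 109 T cells and 3 cancer cells of the antibody library and 22 macrophages and 1 cancer cell of the control IgG library. In the antibody library it was 1.79% unthinned and 0.0656% thinned in cancer cells, and 0.171% and 0.0526% in T cells, whose median was 4275 UMIs. Control IgG macrophages fell from 0.442% to 0.193% and cancer cells from 0.627% to 0.0241%. The gap between cancer cells and T cells of the antibody library thus shrank once depth was made equal.

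The shares of the 4 genes were read in pools of barcodes. Alpha transcripts were 23.2% of haemoglobin UMIs in control IgG free RNA (17.3 to 30.0), 43.6% in antibody free RNA (38.3 to 49.0) and 39.1% there without the rich barcodes (33.5 to 44.9). In the 5 rich barcodes together they were 31.8% (30.5 to 33.2). The intervals of these 3 pools without shared barcodes did not overlap, but they leave out differences between barcodes. In the rich pool, 4477 of 4526 UMIs came from 3 barcodes with alpha shares of 31.5%, 30.0% and 33.5%, and the 2 small ones were at 61.1% and 100%. Whether the rich pool differs from the others was thus not tested. Hbb-bt was 16.5% (10.8 to 23.8), 16.02% (11 to 22.2) and 16.4% (15.1 to 17.7) of the beta transcripts in control IgG free RNA, antibody free RNA without the rich barcodes, and the rich barcodes. Within the last pool it varied, with 15.7%, 19.9% and 11.2% in the 3 large barcodes and 28.6% in the fourth. It was 5.26% (0.133 to 26.0) in control IgG barcodes of 20 to 99 UMIs.

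Hba-a2 made up 42.2% of alpha transcripts in the rich barcodes (39.6 to 44.8), 23.8% in control IgG free RNA (12.1 to 39.5) and 15.5% in antibody free RNA without the rich barcodes (9.46 to 23.4). In the smallest antibody barcodes, of 1 to 9 UMIs, it was 8.99% (3.96 to 16.9; 8 of 89 UMIs), and at 20 to 99 UMIs 37.7% (25.6 to 51.0; 23 of 61). The 3 large barcodes were alike, with 42.6%, 42.3% and 41.2%. Since the copies differ by 1 coding base and share the 3′ end, this share also depends on how reads were assigned, and the part of that in the difference was not tested.

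**Figure D5:**
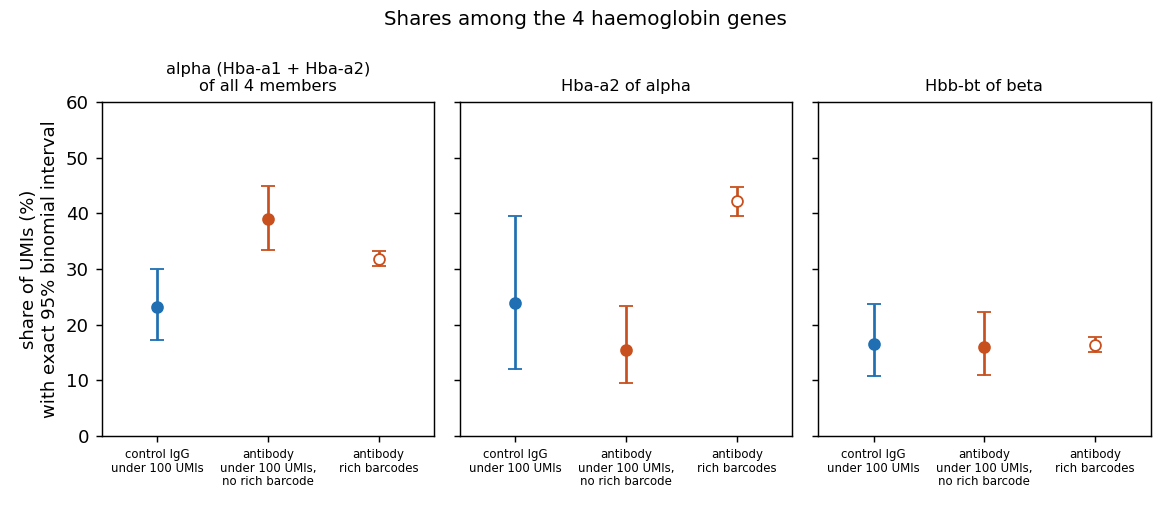
Shares of UMIs in percent (y) with exact 95% binomial intervals for alpha of all 4 genes, Hba-a2 of alpha and Hbb-bt of beta, in 3 pools of barcodes (x). The alpha share is 23.2%, 39.1% and 31.8%, the Hba-a2 share is highest in the rich barcodes at 42.2%, and the Hbb-bt share lies near 16% in these 3 pools.

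Other globin genes were almost absent. Of 6 further genes of the family in the table, the embryonic Hba-x, Hbb-y and Hbb-bh1, and also Hbb-bh2 and Hbq1a, were at 0 in free RNA and cells of both libraries. Hbq1b had 2 UMIs in antibody cells and 0 elsewhere. The haemoglobin signal was thus of the adult type.

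Of 19 listed erythroid genes in the table, 10 had enough UMIs in each library. Of these, 1 was over 2-fold higher in free RNA than in cells of the control IgG library and 1 over 2-fold lower, and in the antibody library none passed in either direction. Over all genes 6.74% and 8.38% were over 2-fold higher, so the upward erythroid counts lay near the background. The share of all genes over 2-fold lower was not counted, so the downward gene has no background beside it. The higher gene was Hemgn, a nuclear protein of blood progenitors, with 6 UMIs in free RNA and 23 in cells, and the lower was the erythropoietin receptor Epor, with 0 and 15. The membrane genes Rhag and Kel were at 0 in both pools of both libraries. Ank1, the ankyrin of the red cell membrane, had a log2 ratio of 0.71 in the control IgG library and 0.02 in the antibody library. The transferrin receptor Tfrc stood at -0.47 and -0.09 and the carbonic anhydrase Car2 at -0.98 and -0.64, both made by many cells. Alas2 had 49 UMIs in control IgG cells, of which 31 lay in 257 fibroblasts that had no haemoglobin UMI, and 2 in free RNA.

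The 11 haem synthesis genes were all measured, and none passed 2-fold in either direction in either library. Their median log2 ratio of free RNA over cells was -0.61 in the control IgG library, where all genes had -0.67, and -0.13 in the antibody library, where all genes had -0.24. Slc25a37 had the value closest to equal levels in the control IgG library, 0.05 (-0.26 to 0.33). Ppox, a late enzyme of the pathway, was at -0.13 and 0.49 in the control IgG and antibody libraries.

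Of 13 genes that clear haemoglobin and haem, 1 passed 2-fold in the control IgG library and 2 in the antibody library, all higher in free RNA, against 6.74% and 8.38% of all genes. Cd163, with 19 and 14 UMIs in free RNA, passed in both, and Spic, a factor of macrophages that recycle iron, passed in the antibody library with 2 UMIs in free RNA and 11 in cells and an interval of -2.04 to 3.37 that includes no difference. Hp, the plasma protein that binds haemoglobin, was at -0.54 and 0.71, and Hmox1 at -0.75 and 0.26. Among 10 genes of red cell uptake, 1 passed upward and 3 downward in the control IgG library, and 2 upward in the antibody library. The share of all genes over 2-fold lower was not counted. The median of this list in the control IgG library was -0.75, where all genes had -0.67, so the 3 are not read as a trait of the list. Stab2, a scavenger receptor, passed upward in both, with 9 and 4 UMIs in free RNA, and in the antibody library its interval of -0.55 to 3.07 includes no difference. Timd4, a receptor of resident peritoneal macrophages for dying cells, was at 0.83 (0.18 to 1.43) and 2.04 (1.5 to 2.55). No platelet gene passed in either library, among 4 and 3 with enough UMIs of 10 listed. Pf4, which platelets and some macrophages make, was at 0.14 and 0.81.

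Over 18 points, the free RNA of each library and the classes with at least 50 cells in both, genes were ranked by the correlation of log2(CPM + 1) with the haemoglobin sum. Among 13082 genes, Alox15 (r = 0.82), Marco (0.77), Cd5l (0.76) and Fcna (0.75), genes of resident macrophages, led, followed by Snhg9, Wfdc21, Ednrb, Mybpc2, Tnnc2 and Pf4. That order rested on the macrophage point of the antibody library, which held the rich cell. Without the rich barcodes, Alox15 fell to 0.41 and place 94. The 10 most alike genes were then the muscle genes Pvalb (0.89), Xirp2 (0.89), Tnnt3 (0.87), Myl1 (0.86), Actn3 (0.86) and Mybpc2 (0.85), with Lrp1b (0.88) and the mitochondrial transcripts mt-Nd4l, mt-Nd5 and mt-Atp8 (0.83 to 0.85). This order leaned on the free RNA points, at 28.8 CPM of haemoglobin (control IgG) and 64.4 CPM (antibody), and so on the level that chose the genes. Antibody B cells came next at 13.5 CPM, from 1 cell with 6 UMIs. Of the first 10, 1 remained. The points share 2 libraries and their depth, and are no independent samples.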

How the data were processed

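As deposited by the authors, each table holds the raw counts of UMIs for every barcode, unfiltered for cells. The matrix header names Cell Ranger 4, the submitters' processing notes version 7.0.1 and build mm10. The labels' chemistry, mice and days differ from the study's methods. No sample column was left unused (0). Members and lists were chosen with earlier results of these data known. A barcode was gated to the class with most marker UMIs among those with at least 2 of 5 markers, if it had at least 3 times those of the next class. This rule replaced an earlier one after its values were seen. CPM are UMIs per 1000000 of the pool. Intervals are exact Poisson, Clopper-Pearson or conditional binomial intervals at 95%. Ratios counted past 2-fold add 0.5 UMIs and need 10 UMIs over both pools, and list genes were named by the highest ratios among those with 20 free UMIs in each library. Other list genes named (those past 2-fold, those at 0, Alas2, Hbq1b and those read in rich barcodes) were chosen after their values were seen. The ratio step was checked on simulated data. Coordinates and sequences are from GENCODE M21. Python 3.11.15, numpy 2.4.6, scipy 1.17.1, pandas 2.3.3 and matplotlib 3.10.9 were used.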

Additional observations from a re-analysis of the deposited data

How the results depend on the processing

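No paired analysis was possible because there is 1 library of pooled mice per group, and for the same reason no replicate could be left out. Haemoglobin in free RNA, antibody over control IgG, was 1.38 on the log2 scale and moved to 0.67 under 50 UMIs, 0.82 under 10, 2.85 at 20 to 99, and 2.18 at 20 to 99 without the rich barcodes, always in the same direction. The last 2, chosen after seeing the data, and the first show that the value depends on the size of barcode read. Free RNA over kept cells moved from 7.18 to 8.29 (under 10 UMIs) and 5.15 (20 to 99) in the control IgG library, and from 2.48 to 3.03, 1.92 and, without the rich cell, 6.49 in the antibody library. The 5.15 and 1.92 were also chosen after seeing the data, as was the 1.16 for free RNA without the rich barcodes. Macrophages over T cells in the antibody library fell from 11.05 to 2.55 (-0.84 to 5.16) without that cell. Without it the shares in antibody kept cells moved from 34.5% to 50% for alpha, from 40.1% to 29.2% for Hba-a2 and from 11.7% to 20.8% for Hbb-bt. Antibody cells with at least 10 haemoglobin UMIs numbered 1, and 4 at a limit of 5. In the control IgG library, macrophages over T cells had a value only with cells of more than 1 class kept, 3.91 (1.52 to 7.21), since T cells were at 0. The other 33 values moved by less than counting error, among them the 0 control IgG and 2 antibody barcodes of at least 100 UMIs that were mostly haemoglobin. Depth limits every class value, most of which rest on under 10 UMIs.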

Other observations

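The gene groups described here were chosen after their values were seen. The smallest barcodes also held transcripts of genes that the small intestine expresses, and where these transcripts came from was not tested. Fabp1, Fabp2, Apoa1, Apoa4, Rbp2, Reg3b and Zg16, genes of the gut lining picked from the top of the ranking, together stood at 494 CPM (466 to 523) in control IgG barcodes of 1 to 9 UMIs and at 22.5 CPM (18.01 to 27.8) at 20 to 99 UMIs, 21.9-fold apart. In the antibody library they were at 232 CPM (211 to 255) and 20.7 CPM (15.5 to 26.9). Fabp1 had 297 UMIs in the smallest control IgG barcodes and 6 in all 8770 cells, and 128 and 0 in the antibody library. Rbp2 was also present in kept cells, with 929 and 1078 UMIs, and gave 241 of the 1166 UMIs summed in the smallest control IgG barcodes.

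In kept cells the genes that stood apart between the libraries included those of granulocyte precursors, which are formed in bone marrow. Haemoglobin also stood apart, but 725 of its 773 UMIs in antibody cells lay in 1 cell. Without that cell its log2 ratio, antibody over control IgG, was 2.07 (1.23 to 2.98). Elane, a protease of neutrophil granules, had 1 UMI in control IgG cells and 1824 in antibody cells. Camp had 63 and 4879, Ngp 144 and 3172, Mpo 31 and 1057, Ctsg 19 and 669, and Ms4a3 had 0 and 300. In how many cells these UMIs lay was not counted, so they may also rest on few cells. Cells gated as neutrophils numbered 20 in the control IgG library and 26 in the antibody library. In free RNA Camp had 1 and 296 UMIs. None of these genes had a UMI in the 5 barcodes with 10 or more haemoglobin UMIs. Their part in the haemoglobin results was not tested, and no sample beyond the 2 libraries bears on it.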
